A study of Mus musculus with 4 samples.

Results

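Isolated recurrent sites are listed positions of C-to-U editing in mouse cortex RNA that carry a site count from 10 to 99 and have no other listed site within 200 nt on the same chromosome and strand. Of the 28412 sites of the list, 6451 had a count in that range, and 601 of these (9.32%) were isolated. Over all listed sites, whatever their count, 5411 (19.0%) had no listed site within 200 nt. The site count is the whole number deposited with each position. Its meaning is unstated in the labels and the list, and "recurrent" is a working name for the range from 10 to 99. Since count and spacing chose the sites, both are described below and tested nowhere.

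The sites came from single-cell DART-seq of dissociated cortex, which reads m6A through a fusion of a cytidine deaminase, APOBEC1, and a YTH domain that binds the mark. The labels give the genotype as APOBEC1-YTH and APOBEC1-YTHmut, the latter a fusion with a mutated YTH domain, and cells of both stood in a single pool. All were treated with tamoxifen at 20 mg/kg, given every 24 h for 5 days from an age of 6 to 8 weeks, with collection 7 days after the last dose. The pool, with replicates 1 and 2 together, was sequenced as 4 sublibraries. The labels name no promoter or Cre line for the tamoxifen treatment. The deposited list is 1 list for the series and names no sample, genotype, cell or depth, so the share of a site's reads from either genotype is unknown and no comparison between animals could be made. Of the markers of cortical cells, a site of any kind was listed in 14 of 18 of excitatory neurons, 8 of 17 of inhibitory neurons and 18 of 20 of astrocytes. It was listed in 16 of 19 of oligodendrocytes, 3 of 10 of their precursors, 3 of 18 of microglia and 15 of 18 of endothelial and mural cells. Over all 23 gene lists used below this was 343 of 470 symbols. A share over all genes was not computed, so no difference between cell types is read from these counts.

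N6-methyladenosine (m6A) is a methyl mark that the METTL3-METTL14 methyltransferase complex places on adenosines of messenger RNA, mostly within the consensus DRACH. That consensus is A, G or T, then A or G, then the methylated A, then C, then A, C or T. In mRNA the mark is known to gather in long last exons and around stop codons, and in the brain it has been studied for its part in synaptic function and learning. In DART-seq the fusion binds m6A and edits cytosines nearby, so a methylated adenosine is read out as C-to-T changes in the sequence. The edited C is the position used for motifs here. The A directly before it takes the place of the methylated A in DRACH. The list names no genotype and no filter, so it does not show that this A is methylated.

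The windows around the 8 isolated sites with the highest count are shown first, because the rule left their sequence free apart from the listing itself. Each window runs 5' to 3' on the transcript with 10 nt on either side of the edited cytosine. Capitals mark the 5-nt context, in which the fourth capital is the edited C and the third the adenosine before it. Coordinates are 1-based on mm10. Mia3, the fifth by count, lay outside annotated genes on its strand and has no window.
Cacna1e (chr1:154471439-154471459, minus strand): ccagagtGAACCggatctctc
Myo5a (chr9:75184343-75184363, plus strand): agagctgGAACAggagaagca
Snhg14 (chr7:59448960-59448980, minus strand): ggcagagAAACAcagataatc
Ryr2 (chr13:11588192-11588212, minus strand): acttttaCAACAtgagaatgc
Son (chr16:91647885-91647905, plus strand): gttgagaGAACGgagcggacg
Acin1 (chr14:54665481-54665501, minus strand): aagaagaTGACGatgatgaag
Unc13a (chr8:71653415-71653435, minus strand): gtgtgctGGACGgcacatcca
The first letters of the capitals vary, but the third is A and the fourth C in each of them, as in all 595 isolated sites with a 5-nt context. That boundary belongs to the list, since all 16686 listed sites with a 5-nt context and a count of 4 or more have that A with a purine before it.

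Of the isolated sites that were the only listed site of their gene, the 5 with the highest count are shown because nothing else in their transcripts was called.
Zic2 (chr14:122479386-122479406, plus strand): attttttTAACTgtttttttt
Lztr1 (chr16:17518126-17518146, plus strand): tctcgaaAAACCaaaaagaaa
Arfgap1 (chr2:180981789-180981809, plus strand): ctgccacCGACAccctcacct
Gm14329 (chr6:135743886-135743906, plus strand): catgtcgAAACGtggacctgg
Gm10115 (chr2:6951444-6951464, minus strand): aaaaacaAAACAttgcatgca
Zic2 and Gm10115 have runs of T or A beside the context. The Lztr1 window also occurs in transcripts of 5 other genes, so the window alone cannot tell these copies apart and its count is uncertain. The highest counts in 5' UTRs and noncoding exons that are not already printed belonged to 3 sites.
Ppp3ca (chr3:136670580-136670600, plus strand): aaataaaTAACCagcacacac
Pdcd4 (chr19:53903424-53903444, plus strand): ggctgagGAACGgggtcgggg
Ubp1 (chr9:113956678-113956698, plus strand): ttttttgTAACTtgtttttga
A further set is shown because GAACG, a context outside DRACH, was frequent among the isolated sites. These are the 5 highest counts in that context beside Son and Pdcd4. They were picked after the values were seen.
Grin1 (chr2:25295803-25295823, minus strand): cagccgtGAACGtgtggagga
Kif1b (chr4:149267234-149267254, minus strand): aggaagtGAACGggctgattc
Dctn1 (chr6:83190038-83190058, plus strand): actgaagGAACGggtagacga
Kif1a (chr1:93055703-93055723, minus strand): cagaggtGAACGaggaggaag
Adgrl4 (chr3:151497878-151497898, plus strand): aaaacgtGAACGggggcttca
In Kif1b, Dctn1 and Adgrl4, as in Son and Pdcd4, the G after the edited C is followed by another G.

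Counts of the isolated sites reached from 10 to 97 with a median of 15, and the quartiles were 11 and 22. Recurrent sites that did have a listed neighbour, called clustered below (5850 sites in 1354 genes), had a median count of 18. The share of isolated sites fell with the count: 427 of 3568 sites with a count of 10 to 19 (11.97%), 150 of 2211 with 20 to 49 (6.78%) and 24 of 672 with 50 to 99 (3.57%). At the lower edge of the rule, 90 isolated sites had a count of exactly 10 and 139 fell just outside with a count of 9. At the upper edge no isolated site had 98 or 99, and 6 had 100 or more. These were in Nos1ap (416), Grin2b (123), Bcan (122), Qk (112), Dst (104) and Uri1 (100).

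The nearest listed site lay a median of 4859 nt away in the genome, with quartiles of 939 and 33546 nt, while for clustered sites the median was 6 nt. Just inside the limit were a site in Dync1h1, the dynein heavy chain, at 201 nt with a count of 15, one in Gm21992 at 202 nt with 12 and one in Septin8 at 203 nt with 38. Just outside were sites in Grin2a at 200 nt with a count of 80, in Eef1a1 at 199 nt with 69 and in Bace1 at 197 nt with 13. The interval from 201 to 210 nt held 9 sites and that from 191 to 200 nt held 5. Most isolated sites were therefore far from the limit, and few would change class with a small shift of it.

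**Figure D1:**
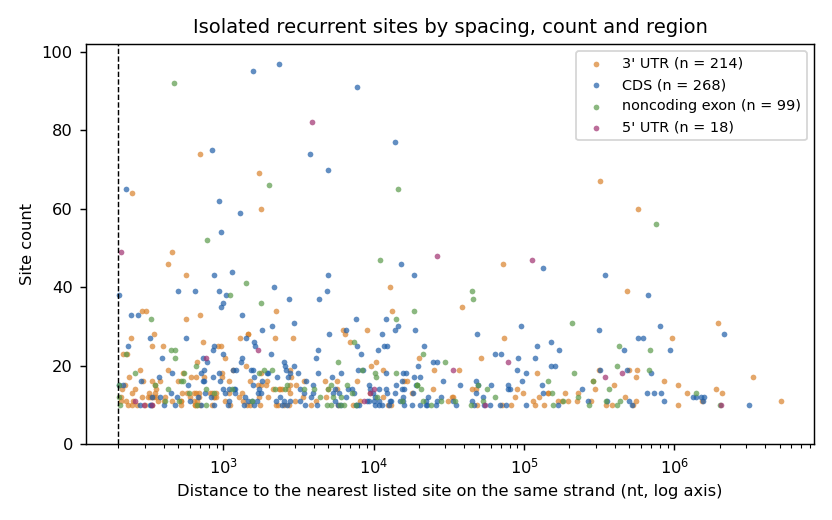
Site count (vertical axis) against the distance in nt to the nearest listed site on the same strand (horizontal log axis) for isolated recurrent sites, each point a site, coloured by transcript region; the dashed line is at 200 nt. Points of all regions spread from just past the line to a distance of 5140180 nt, and the highest counts, 97 in Cacna1e and 95 in Myo5a, lay in CDS.

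The 601 sites fell in 534 genes, 12.7% of the 4206 genes with a listed site. Of these, 481 held 1 isolated site, 45 held 2, 5 held 3 and 3 held 5. Isolated sites sat in genes with few listed sites: the median gene around an isolated site had 5 listed sites, and that around a clustered site 30. A clustered site has a listed neighbour by the rule. Around isolated sites with a count of 4 to 9 the median was 4, and 30.0% of them were the only listed site of their gene. For 143 isolated sites (23.8%, 95% interval 20.4 to 27.4) the gene had no other listed site. In the genes with others, the isolated site had the highest count of its gene in 245 of 458 cases (53.5%), and clustered sites in 20.4%. At isolated sites with a count of 4 to 9 this was 376 of 1606 (23.4%). The count is part of the rule, so this rank is described only. How far the number of sites per gene sets these shares was not tested. Clustered recurrent sites were also present in 211 of the genes, which held 263 of the isolated sites, and 323 genes had isolated ones only. The intervals are Clopper-Pearson intervals and cover counting error over sites only.

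The transcript regions of the isolated sites differed from those of clustered sites. Of the 601, 268 lay in coding sequence (CDS; 44.6%, 40.6 to 48.7), 214 in 3' UTRs (35.6%, 31.8 to 39.6), 99 in exons of noncoding transcripts (16.5%, 13.6 to 19.7) and 18 in 5' UTRs (3.00%, 1.78 to 4.69). A single site, in Safb2 at 56570080 of chromosome 17 with a count of 21, was intronic in every annotated transcript of its gene there. Mia3 at 183357903 of chromosome 1 was outside annotated genes. Among clustered sites 72.9% were in 3' UTRs and 16.7% in CDS. The 3' UTR share of isolated sites minus that of clustered sites was -37.2 percentage points (95% interval, with errors clustered by gene, -43.0 to -31.5), and the CDS share higher by 27.9 points (23.3 to 32.5). The noncoding share was higher by 7.58 points (2.29 to 12.9) and that of 5' UTRs by 1.61 points (0.158 to 3.06). These intervals describe the spread over genes of this list, not over animals. The rule counts any site of a dense stretch as clustered, so a region with dense listed sites holds fewer isolated ones by construction. How much of these differences follows from that was not tested.

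A gene's transcripts often disagree, and 3' UTR was given first place where they did. With CDS in first place, 49.6% of the isolated sites were in CDS and 30.6% in 3' UTRs. On the longest coding transcript, which held 473 of them, CDS reached 62.2% and 3' UTR 34.7%, against 22.0% and 76.6% of clustered sites. The direction of the difference from clustered sites was the same on that transcript. Within genes that held both classes, the 3' UTR share of isolated sites was also lower, with a difference of -25.7 points.

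Isolated sites with a count of 4 to 9 (2295 sites) had 41.4% in 3' UTRs and 42.1% in CDS. Against them, the isolated recurrent sites differed by -5.83 points in 3' UTRs (-10.2 to -1.46). In noncoding exons, which held 12.6% of the sites with lower counts, the difference was 3.84 points (0.489 to 7.18). In CDS it was 2.46 points (-2.0 to 6.91) and in 5' UTRs -0.317 points (-1.86 to 1.23), and both intervals hold 0. Within the isolated recurrent sites, the CDS share was 41.5% at counts of 10 to 19, 53.3% at 20 to 49 and 45.8% at 50 to 99, the last over 24 sites only. In noncoding exons, 54 of the 99 sites belonged to noncoding transcripts of protein-coding genes. These 54 were in no exon of a coding transcript of the gene and may be intronic in it. The noncoding share is therefore not a share of noncoding genes. Of the others, 15 were in transcripts of the type TEC (models awaiting experimental support), 10 in lincRNAs, 9 in antisense RNAs, 8 in processed transcripts and 3 in sense intronic RNAs.

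**Figure D2:**
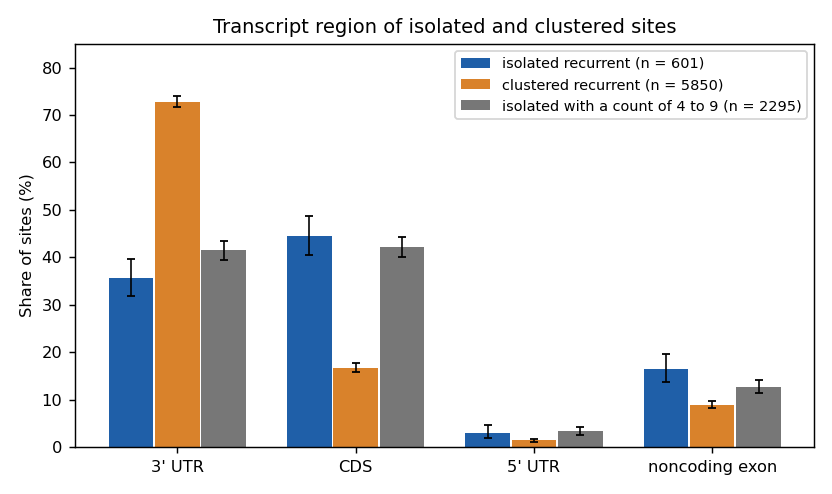
Share of sites (%) in each transcript region for isolated recurrent sites (n = 601), clustered recurrent sites (n = 5850) and isolated sites with a count of 4 to 9 (n = 2295); bars start at 0 and error lines are 95% Clopper-Pearson intervals over sites. The isolated recurrent sites have a higher CDS bar (44.6%) than 3' UTR bar (35.6%), those with a count of 4 to 9 nearly equal ones (42.1% and 41.4%), and 72.9% of clustered sites are in 3' UTRs.

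Isolated sites did not gather at the stop codon as clustered sites did. The 400 nt on either side of it held 82 of 473 isolated sites on the longest coding transcript (17.3%, 14.0 to 21.1) and 34.4% of 5160 clustered sites. The difference was -17.1 points (-21.4 to -12.7). Where listed sites are dense, the rule leaves few isolated ones, and how much of this difference follows from that was not tested. The median position was -664 nt for isolated sites, upstream of the stop codon, and 367 nt for clustered sites, downstream of it. In the 200 nt after the stop codon were 4.23% of isolated and 15.9% of clustered sites. The fullest bin of isolated sites, from 800 to 600 nt before the stop codon, held 6.13% (29 sites), and 266 of them (56.2%) lay more than 400 nt before it. Among isolated sites with a count of 4 to 9 the share within 400 nt was 20.5%, and the interval of its difference from the isolated recurrent sites held 0 (-3.18 points, -6.99 to 0.632).

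**Figure D3:**
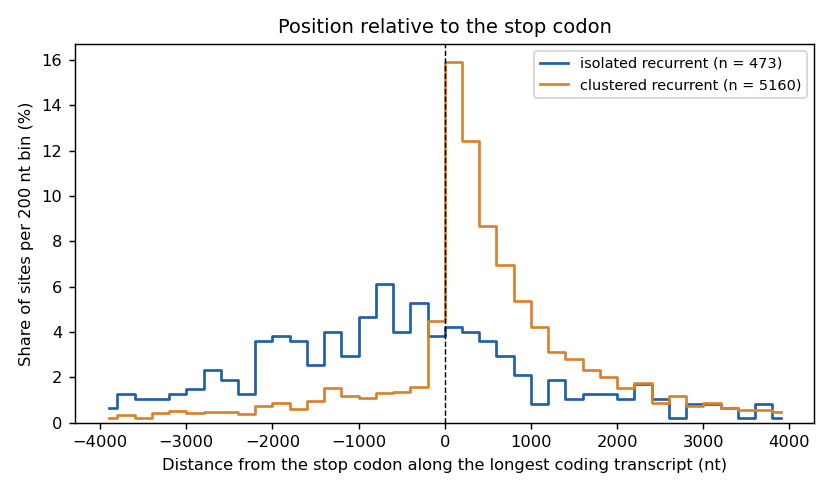
Share of sites (%) in bins of 200 nt by distance in nt from the stop codon on the longest coding transcript, negative upstream, for isolated (n = 473) and clustered (n = 5160) recurrent sites. The clustered line peaks at 15.9% just after the stop codon, where the isolated line is at 4.23%, and in the 200 nt before it the lines are at 3.81% and 4.50%.

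Isolated sites lay less often in last exons than clustered sites, and those in CDS lay in shorter exons. The last exon of its transcript held 264 of 599 exonic isolated sites (44.1%) and 81.5% of clustered sites, a difference of -37.5 points (-42.1 to -32.8). For sites in CDS of the longest transcript, the exon had a median length of 167.5 nt around 294 isolated sites and 697.5 nt around 1134 clustered ones. Exons of at most 200 nt held 188 of those 294 (63.9%) and 31.4% of the clustered. Within 50 nt of an exon junction were 181 isolated CDS sites (61.6%) and 29.8% of the clustered, and nearer than 5 nt were 12 of all 599 (2.0%) and 0.274% of the clustered. For isolated sites with a count of 4 to 9, the last exon share was 51.1%. The isolated recurrent share minus that one was -7.06 points (-11.6 to -2.52). Their CDS sites had a median exon of 169 nt, with 60.0% in exons of at most 200 nt and 55.1% within 50 nt of a junction. The rule measures spacing in the genome, where an intron separates neighbouring exons, so a short exon leaves little room for a neighbour within 200 nt. How much of the exon pattern follows from that was not tested.

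Measured along the spliced transcript instead, 89 of 599 isolated sites (14.9%, 12.1 to 17.96) did have a listed site within 200 nt, across a junction. The 4 highest in CDS show both kinds. The Cacna1e site, in exon 21 of 47 of the R-type calcium channel subunit, was 2353 nt from its nearest listed neighbour in the genome and 124 nt in the transcript. In Myo5a, an actin-based motor, the site was in exon 26 of 41 and the distances were 1565 and 146 nt. The Ryr2 site, in exon 93 of 105 of the intracellular calcium release channel, stayed apart on both scales, at 7764 and 1524 nt. Acin1, a splicing-associated nuclear protein, had 13780 nt and 383 nt in exon 6 of 19. Sites that were isolated on the transcript too had a CDS share of 38.3%, lower than the 44.6% of all isolated sites and above that of clustered ones.

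Other cytosines of the same kind lay near the isolated sites without being listed. RAC, here, is A or G, then A, then the cytosine. The median isolated site had 11 RAC cytosines within 200 nt on its transcript, and the median clustered site also 11. Of these, a median of 10 were unlisted around isolated sites and 5 around clustered ones, and 0 of 599 isolated sites lacked an unlisted RAC in that window. The rule fixes the low number of listed neighbours, but not the number of RAC cytosines. An unlisted cytosine may be unread, unedited or removed by a filter, as the list carries no depth. Bases around isolated sites were 58.2% A or T on average and those around clustered sites 60.5%. The median distance to the 3' end of the transcript was 2407 nt and 2053 nt.

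DRACH was less frequent among isolated than among clustered sites. It held 379 of 595 isolated sites (63.7%, 59.7 to 67.6) and 74.7% of 5834 clustered sites, a difference of -11.0 points (-15.1 to -6.85). With a term for transcript region the difference was -5.77 points. At isolated sites with a count of 4 to 9 the DRACH share was 66.7%. The interval of the isolated recurrent share minus that one held 0 (-3.01 points, -7.42 to 1.39). On the longest coding transcripts with a listed site, 373896 of 499159 RAC cytosines were DRACH, listed or not. The shares of 63.7% and 74.7% alone therefore show no preference for DRACH. Within 3' UTRs the shares were 70.0% and 77.9% (-7.93 points, -14.2 to -1.63), and within CDS 55.2% and 59.8%, where the interval of the difference held 0 (-4.55 points, -11.4 to 2.34). In noncoding exons both were 78.1%. GGAC was found at 5.21% of isolated and 5.93% of clustered sites, and the interval of that difference held 0 (-0.72 points, -2.77 to 1.33).

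After the edited cytosine DRACH allows any base but G. G followed the edited C at 176 of 595 isolated sites (29.6%) and at 11.7% of clustered sites, a difference of 17.9 points (14.1 to 21.6). Within CDS the shares were 39.2% and 24.5%, and within 3' UTRs 22.5% and 8.99%. Guanine was also more frequent at other places: 3 nt before the edited C at 31.0% of isolated and 18.5% of clustered sites, 2 nt after it at 33.6% and 20.1%, and 3 nt after it at 30.8% and 17.4%. At 2 nt before it, the purine of the motif, G was less frequent, at 30.2% and 37.0%. Further from the edited C, G was also higher, as at 10 nt before it (23.9% and 17.6%) and 6 nt after it (24.1% and 17.3%). At 9 nt after it, G was slightly lower (18.1% and 18.4%). The higher share of G thus covered most positions of the window and was not confined to the bases beside the edited C.

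**Figure D4:**
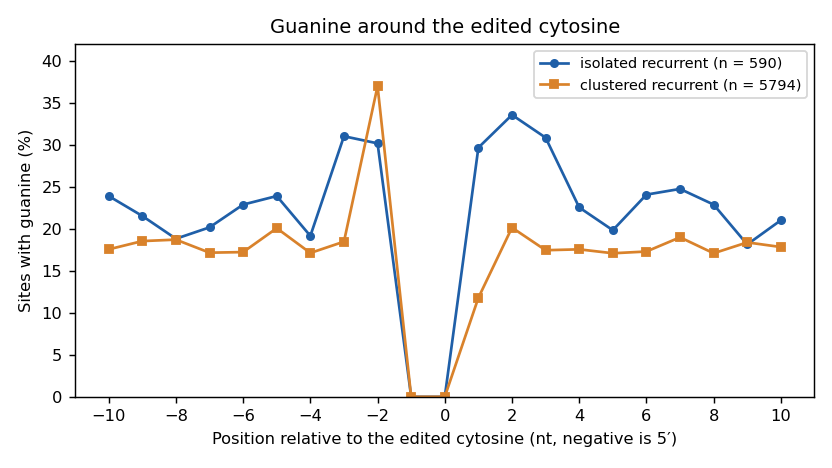
Share of sites (%) with guanine at each position from 10 nt before to 10 nt after the edited cytosine (position 0), for isolated (n = 590) and clustered (n = 5794) recurrent sites with a full window. At positions 1 to 3 the isolated line stands at 29.7%, 33.6% and 30.8% and the clustered line at 11.8%, 20.1% and 17.4%, and both are at 0 at the edited C and the A before it.

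The context GAACG, which the windows of Son, Grin1 and Kif1b carry, made up 77 of 595 isolated sites (12.9%, 10.3 to 15.9), in 76 genes, and 146 of 5834 clustered sites (2.50%). The difference was 10.4 points (7.67 to 13.2), and 8.71 points with a term for region. It was the second most frequent context after AAACA, which had 86 isolated sites (14.5%) and a near-equal share of clustered sites, 15.7%. GAACA followed with 54 sites (9.08% and 5.07%), then AAACT with 38, AAACG with 35 (5.88% and 2.33%) and AGACA with 34. GAACG stood at 6.32% of isolated sites with a count of 4 to 9, lower than in the recurrent ones by 6.63 points (3.76 to 9.49). The choice of GAACG, like that of its extensions, was made after the contexts were seen.

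Most isolated GAACG sites were in coding sequence, at 70.1% of the recurrent ones and 67.4% of those with a count of 4 to 9. Of the isolated CDS sites, 54 of 268 (20.1%) were GAACG, and 6.35% of the clustered CDS sites, a difference of 13.8 points (8.70 to 18.9). In 3' UTRs the shares were 6.10% and 1.69% (4.41 points, 1.08 to 7.75). In noncoding exons they were 5.21% and 1.74% (3.47 points, -1.16 to 8.09, which holds 0), and in 5' UTRs 5 of 18 isolated sites had the context. The median count at GAACG was 15 at isolated and 22 at clustered sites. Sites isolated along the spliced transcript too had 10.1% GAACG.

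A further G followed 55 of the 77 isolated ones (71.4%, 60.0 to 81.2) and 60 of the 146 clustered ones (41.1%). At GAACG of isolated sites with a count of 4 to 9 it followed 89 of 143 (62.2%, 53.8 to 70.2), an interval that overlaps that of the isolated recurrent ones. Starting at the edited cytosine, CGGG was found at 73 of 590 isolated sites (12.4%, 9.83 to 15.3) and at 84 of 5794 clustered sites (1.45%), and the shorter CGG at 17.3% and 3.50%. TGCTT placed 6 to 10 nt after the edited C was found at 12 isolated (2.03%) and 16 clustered sites (0.276%). A run of 7 A directly before the edited C was at 3.73% and 2.57%, with intervals that overlap (2.35 to 5.59 and 2.18 to 3.01). These are counts of letters on the transcript strand, not calls of a binding site. TGCTT and the run of A were not among the planned measures, so they are described only.

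The same contexts were set against all RAC cytosines of the 3591 longest coding transcripts with a listed site. Of 499159 RAC cytosines, 3.87% were listed at any count and 0.0948% were isolated recurrent sites. DRACH made up 373896 of them, of which 3.62% were listed and 0.0778% were isolated recurrent sites. Clustered recurrent sites were 1.02% of these DRACH cytosines and 1.03% of the RAC cytosines. Of 7126 GAACG cytosines, 9.26% were listed and 0.982% were isolated recurrent sites. GAACGG went further, with 318 of 2001 listed (15.9%) and 50 isolated (2.50%), nearly as many as the 55 that were clustered (2.75%). AAACA was listed at 7.94% of 32379 places and isolated at 0.191%. GGACT, often named as the preferred m6A sequence, was listed at 1.73% of 18722 and isolated at 0.0374%.

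The leading GAACG sites lay in genes of different roles. Son, a splicing cofactor of nuclear speckles, had its site in the 5' UTR in exon 1 of 12, with a count of 82. Grin1, the obligate NMDA receptor subunit, had a count of 59 in exon 19 of 21, 249 nt before the stop codon (-249 nt) and 52 nt from another listed site on the spliced transcript. Dctn1, the large dynactin subunit, had a count of 45 in exon 10 of 31, and this was its only listed site, 133428 nt from the nearest other on its strand. Pdcd4, an inhibitor of translation initiation, had 48 in a 5' UTR. Kif1a, a kinesin that carries synaptic vesicle precursors, had 43 and Adgrl4, an endothelial adhesion receptor, 40, both in CDS. Most of them lay in CDS, and the 2 in 5' UTRs had the first and the fourth highest count of the 7.

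Among the other high counts, Unc13a, which primes synaptic vesicles for release, had 75 in exon 17 of 44. Mia3, an endoplasmic reticulum export protein by its symbol, had 87 at a place with no annotated gene on that strand. Ppp3ca, the catalytic subunit of calcineurin, had 49 in its 5' UTR, 209 nt from the next site. Zic2, a zinc finger transcription factor, had 67 at 153 nt after its stop codon, and Arfgap1, which acts on a GTPase of the Golgi, had 60 at 429 nt after it. Ubp1, a transcription factor, had 66 in a noncoding exon, Gm14329, a lincRNA, had 56, and Gm10115, a sense intronic transcript, 47. High counts were thus found in all exonic regions.

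Genes with several isolated sites differed in where these lay. Kif1b, a kinesin for mitochondria and synaptic vesicle precursors, had 5 among 47 listed sites, with counts of 62, 54, 35, 18 and 10, all in CDS. They were in exons 11, 8, 9, 12 and 23 of 49, and each had a listed site on the spliced transcript at 70 to 175 nt. Grin2b, an NMDA receptor subunit, had 3 among 97, with counts of 46, 25 and 13, all in its 20716 nt last exon at 15070, 7587 and 1206 nt after the stop codon. Pfkp, a platelet-type phosphofructokinase of glycolysis, had 3 among only 8, with counts of 39, 14 and 12. In Kif1b, then, sites that the genome keeps apart stood close in the mRNA, and in Grin2b they stood apart within a single exon.

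Snhg14, the host of small nucleolar RNAs at the imprinted Prader-Willi region, also had 5 isolated sites, among 55 listed, with counts of 92, 24, 24, 22 and 18. The first 4 lay in exons of 46 nt, 12 nt from a junction, and share the window ggcagagAAACAcagataatc letter for letter. Listed sites at 59391417 and 59393288 of chromosome 7 had that window too, with counts of 7 and 3. Reads of these repeated exons cannot be told apart by the window, and no label says how they were placed, so the separate counts of Snhg14 are uncertain. Of 590 isolated sites with a full window, 36 had it also in a transcript of another gene, 16 around another listed site and 8 around another isolated recurrent site. The window of B3gat1 (count 49) occurred in 142 other genes, a window shared by Ankrd11 (10), Gm48582 (14), Kif5b (29) and Lin7c (16) in 92, and that of Gapdh (33) in 91, so these are uncertain as well. Of the GAACG sites, 6 of 77 had such a window. Only the windows were compared, and how reads of these copies were placed was not checked.

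Listed sites on the opposite strand lay within 200 nt of 7 isolated sites (1.16%). The highest count was 46 in Uqcrc2, a subunit of respiratory complex III, 16 nt from the opposite site. The others were in Chn1os1 (39, at 88 nt), A930005N03Rik (20, at 31 nt), Necab1 (18, at 153 nt), Snapc3 (18, at 30 nt), Snhg4 (16, at 109 nt) and Selenop (11, at 4 nt). No label says whether reads were assigned by strand, and such pairs are uncertain. On chromosomes, 65 isolated sites lay on chromosome 1, 52 on 7 and 44 on 11. As a share of listed sites they made up 3.43% on chromosome 7, 3.25% on 1 and 0.929% on 18, and 0 of 20 on Y.

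Among 23 gene lists with 470 symbols, 343 genes had a listed site and 86 an isolated recurrent one. The share over all listed genes was 12.7%, and nothing is read from a list's share against it, since count and spacing chose the sites. The counts below are of members with an isolated site among members with any listed site, and each gene's value is its highest count at such a site. Of the cytoskeleton and motor genes these were 10 of 22, with 16 sites in all, of which 13 were in CDS, and with Kif1b at 62, Kif1a at 43 and the kinesin light chain Klc1 at 40. Presynaptic genes had 6 of 24, led by Unc13a at 75, the fusion protein Snap25 at 52 and the vesicle GTPase Rab3a at 34. Postsynaptic genes had 6 of 21, among them Grin1 at 59 and Grin2b at 46. Ion channel genes had 3 of 23, with Cacna1e at 97 and the sodium channels Scn2a at 25 and Scn1a at 12.

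Among regulatory genes, kinases and phosphatases had 8 of 20, with Ppp3ca at 49, the protein kinase C isoform Prkce at 21 and the MAP kinase kinase Map2k4 at 12. Transcription factors and chromatin genes had 8 of 22, with Bcl11a at 28 and the remodelling ATPase Smarca2 at 27. RNA-binding proteins had 6 of 22, with the translation regulator Cpeb3 at 26, the splicing factor Rbfox2 at 23 and the silencing factor Tnrc6b at 17. The m6A machinery had 2 of 10, the nuclear reader Ythdc1 at 27 and the demethylase Fto at 13. Immediate early genes had 1 of 15, Arc at 12, in the 3' UTR.

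Ubiquitin and proteasome genes had 5 of 17, with the deubiquitinase Usp9x at 28, the proteasome ATPase Psmc1 at 22 and the polyubiquitin gene Ubb at 18. Membrane trafficking genes had 5 of 20, with Rab6b at 34, the adaptor subunit Ap2b1 at 19 and the clathrin heavy chain Cltc at 16. Chaperone and stress genes had 3 of 15, with Hspa8 at 22, Dnajb1 at 19 and Hsph1 at 11. Of the oxidative phosphorylation genes 1 of 6 had an isolated site, Uqcrc2 at 46, and of the ribosomal protein genes 1 of 4, Rps23 at 27. Neurodegeneration genes had 2 of 16, Atxn1 at 19 and Htt at 13. Nuclear long noncoding RNAs had 5 of 10 with 10 sites, among them Snhg14 at 92, Kcnq1ot1 at 38 and Xist at 32. The windows of Usp9x, Ythdc1, Ubb, Rps23 and another Hspa8 site, with a count of 10, recur in transcripts of other genes, as do those of Gm21992 and Snhg4 above, so their sites are uncertain.

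Of the cell type markers, those of excitatory neurons had 0 of 14 and those of inhibitory neurons 1 of 8, the GABA-synthesising enzyme Gad2 at 11. Astrocyte markers had 3 of 18, among them the bicarbonate transporter Slc4a4 at 43 and the metallothionein Mt1 at 11. Oligodendrocyte markers had 6 of 16, with the deacetylase Sirt2 at 17, Enpp2 at 16 and the galactolipid enzyme Ugt8a at 15. Endothelial and mural markers had 3 of 15, with the transporter Slco1a4 at 70, the VEGF receptor Flt1 at 33 and the efflux pump Abcb1a at 10. Markers of oligodendrocyte precursors had 1 of 3, Ptprz1 at 14, and of microglia 1 of 3, Siglech at 18. Differences between the lists were not tested. The cells that gave these reads are not named in the list, so a marker's site does not place it in a cell type here.

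**Figure D5:**
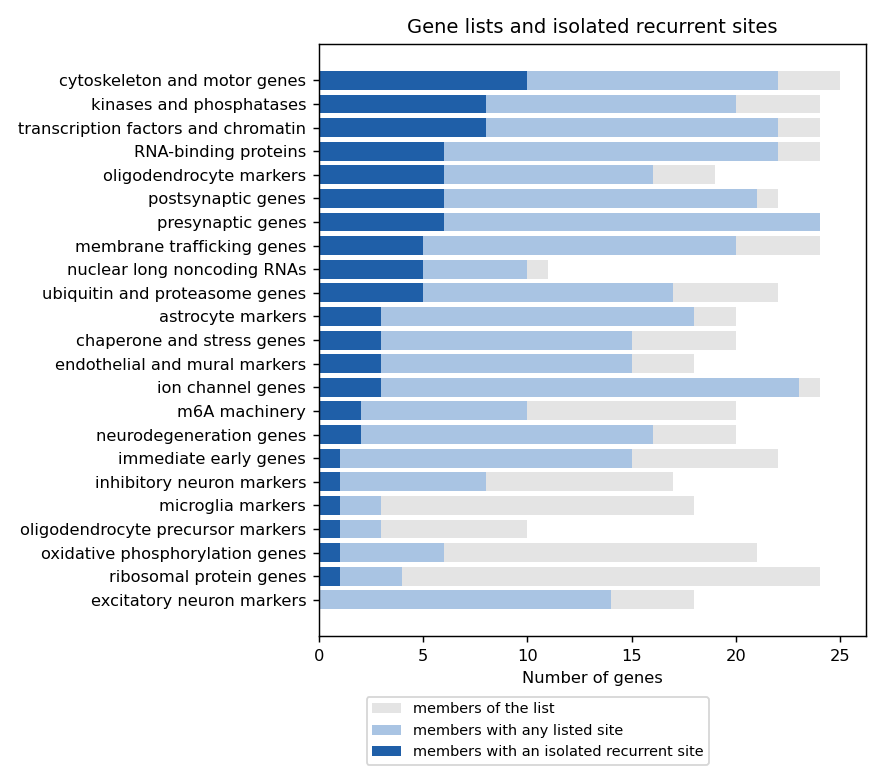
Number of genes in each of 23 lists (grey), of those with any listed site (light blue) and of those with an isolated recurrent site (dark blue); bars start at 0 and overlay each other. Cytoskeleton and motor genes have the longest dark bar with 10 genes, and markers of excitatory neurons, with 14 listed, have none. Over all listed genes the share was 12.7%, and no list was tested against it.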

How the data were processed

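RNA of dissociated cortex cells was profiled as 4 sublibraries of 1 pool. STAR 2.7.5 and the build mm10 are named per the submitters' processing notes, and the Bullseye pipeline for C-to-U sites per the series text. In 1 list the authors deposited, for each site, a position, strand, gene symbol and whole number, used as an unnormalized count. The list has no header, so the meaning of the count is not stated, and neither are the filters. It names no samples, so there are no replicates, depth is unknown, and no p-value was computed.

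Sites were placed on GENCODE M21 (mm10 coordinates). Of the 601 isolated sites, 595 matched a gene by symbol, 3 by an older symbol, 2 by position and 1 not at all, and all 599 exonic ones had a C on their strand. Sequences come from the annotated transcripts. Where transcripts differed, 3' UTR went before CDS, then 5' UTR, noncoding exon and intron. Spliced distances, exon numbers and RAC counts use the annotated transcript of the site, and stop codon distances the longest coding transcript. Shares have 95% Clopper-Pearson intervals (scipy 1.17.1). Differences are least-squares estimates of shares with errors clustered by gene (statsmodels 0.14.6), tested on simulated data. The rules for spacing, count, region order, stop codon window and motif were varied as alternatives.

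The isolated sites and the gene lists were chosen with earlier results of these data known. Genes named are the 10 highest counts, up to 3 per list, the 5 genes with the most isolated sites, the 5 highest counts that were a gene's only site, the 3 highest in CDS, in 5' UTRs and in noncoding exons, and sites beside the thresholds. Some sites and genes that meet these rules are not reported here.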

Additional observations from a re-analysis of the deposited data

How the results depend on the processing

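Of 117 alternative values, 87 stayed within the limit set for them (the interval of the value reported or, for the number of sites, a fixed ratio) and 30 moved. Of the differences, 0 changed sign, and counts, shares and medians cannot change sign. Alternatives for isolation along the spliced transcript, for a region term and for GAACG were chosen after seeing the data. With neighbours counted only from a site count of 4, there were 996 isolated sites, and DRACH rose to 67.6%. Only sites of a gene fell to 14.4%, and 48.3% had a listed site within the window on the spliced transcript. The sites added here have a listed site of lower count within 200 nt, and the spliced measure counts neighbours of any count. Both of these shares therefore follow largely from the rule, not from introns. With counts of 20 to 99, 174 sites remained, with 27.0% in 3' UTRs, 52.3% in CDS, 20.1% only sites, 23.8% with a spliced neighbour and 56.9% A or T. With a distance of 100 nt, 39.6% were in 3' UTRs, 19.6% were only sites, 5.36% had a spliced neighbour and the median of unlisted RAC was 5. With 500 nt, 27.5% were only sites, 26.4% had a spliced neighbour and that median was 26. With 1 site per gene, 12.03% had a spliced neighbour. CDS first gave 30.6% in 3' UTRs and 49.6% in CDS, and the longest coding transcript 62.2% in CDS. Within 200 nt of the stop codon lay 8.03%, and GGAC in place of DRACH gave 5.21%. Sites also isolated on the spliced transcript had 38.3% in CDS and 10.1% GAACG, and a GAACG difference of 7.58 points. The 3' UTR difference was -25.7 points within genes with both classes and -47.1 points at counts of 20 to 99, and the DRACH difference -16.1 points within such genes and -5.77 points with a region term. The median of unlisted RAC scales with the window by construction; other causes were not tested. The noncoding share on the longest coding transcript was not run, since that transcript has no noncoding exon. No paired analysis was possible because the sites carry neither a group nor a replicate. Depth is unknown, so a missing neighbour was not detectable as unedited, and the list gives no spread between animals.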
